A study of Drosophila melanogaster with 13 samples.

Results

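The genes that encode the subunits of the proteasome were followed in RNA from whole heads of 5-day-old adult Drosophila melanogaster. Members were all genes whose deposited name starts with Prosalpha, Prosbeta, Rpn or Rpt followed by a digit, which gave 47 of the 18344 genes in the files. Of these, 32 are the core subunits and 15 are paralogues, kept apart because most are known as testis-type copies. Every fly carried the GMR-Gal4 driver, active in the retina of the pupa and in the adult eye. The groups were GMR-Gal4/UAS-Rab5 RNAi (n = 5), GMR-Gal4/UAS-Rab7 RNAi (n = 4) and the control GMR-Gal4/WT (n = 4), all kept at 25 °C. RNA interference was thus directed to the eye while the whole head was measured, and fewer cells of a type and less RNA per cell cannot be told apart in such bulk RNA. No label states that the samples of a group are separate crosses or flies, so that the spread behind every p-value may be technical.

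The proteasome degrades proteins that carry ubiquitin chains. Its barrel-shaped core particle (20S) has outer rings of alpha subunits, which form the gate, and inner rings of beta subunits, some of which hold the proteolytic sites. A regulatory cap (19S) sits on the barrel: its base holds the Rpt ATPases, which unfold substrates and thread them into the core, together with Rpn subunits that scaffold the cap and bind ubiquitin, and its lid holds further Rpn subunits, among them the deubiquitinase Rpn11. The subunits work in fixed ratios within one complex.

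The deposited unit was FPKM, reads scaled to gene length and to a size factor for each library, so levels can be compared between genes. Reads on genes ran from 17138630 to 21410768 per library. Rab5 itself, the GTPase of early endosomes, lay between 51.7 and 64.5 FPKM in the Rab5 RNAi libraries and between 111.5 and 121.9 FPKM in controls, without overlap. Rab7, the GTPase of late endosomes, lay between 87.3 and 109.0 FPKM in the libraries labelled Rab7 RNAi and between 96.1 and 105.4 FPKM in controls, so no fall showed, and these are called the Rab7-labelled libraries. A list of 8 photoreceptor markers, all detected, summed to between 33463 and 44265 FPKM in controls. It summed to between 1563 and 8326 FPKM in Rab5 RNAi and between 17106 and 39298 FPKM in the Rab7-labelled libraries. For 5 neuronal markers the sums were 595 to 671, 413 to 525 and 503 to 695 FPKM. In Rab5 RNAi nSyb (217 to 296 beside 355 to 404 FPKM) and brp (33.0 to 45.4 beside 46.5 to 54.2 FPKM) lay below every control. The other neuronal markers, elav, Syt1 and para, overlapped the controls. Libraries of every group also differed in Act57B, a muscle actin. It lay between 1438 and 1574 FPKM in control 4, Rab5 RNAi 1 and 5 and Rab7-labelled 1 and 4, and between 653 and 846 FPKM in the other 8 libraries.

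The core subunits were expressed at closely similar levels. Leaving out Prosalpha1, the means over the 13 libraries ran from 35.6 FPKM for the lid subunit Rpn7 to 101.5 FPKM for the alpha ring subunit Prosalpha3, a span of 2.85-fold, with a median of 56.3 FPKM. Genes of the 20S particle lay higher than those of the 19S cap. The 13 genes of the 20S particle without Prosalpha1 ran from 47.8 to 101.5 FPKM with a median of 73.7 FPKM. The 18 genes of the cap ran from 35.6 to 67.8 FPKM with a median of 47.1 FPKM, and 8 of the 13 genes of the 20S particle lay above the highest gene of the cap. Within single libraries the ratio of the 2 medians lay between 1.40 and 1.68. It was 1.54 ± 0.12 (SD, n = 4) in controls, 1.57 ± 0.11 (SD, n = 5) in Rab5 RNAi and 1.59 ± 0.09 (SD, n = 4) in the Rab7-labelled libraries, so the groups differed by less than their spread.

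**Figure D1:**
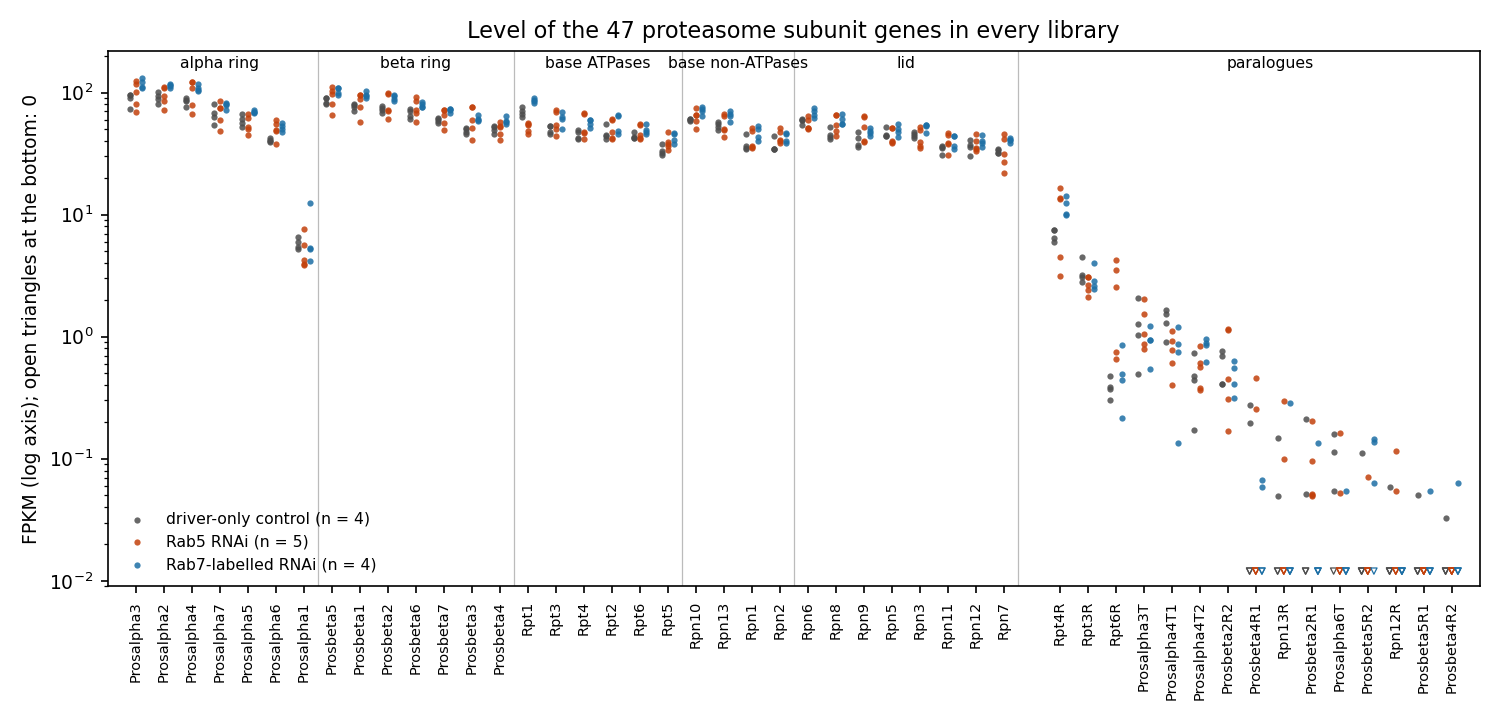
FPKM of all 47 members in every library, on a log axis. Points are libraries coloured by group, members are ordered by subcomplex and mean level, and open triangles at the bottom mark a value of 0. The core subunits other than Prosalpha1 form a band with means from 35.6 to 101.5 FPKM, while 11 of the 15 paralogues have a mean below 1 FPKM.

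Prosalpha1 (FBgn0263121, 2R 7827303 to 7828678, minus strand) was the low member of the alpha ring. Its level was 5.39, 6.602, 6.004 and 5.22 FPKM in controls 1 to 4 and 5.61, 7.56, 3.96, 4.27 and 3.84 FPKM in Rab5 RNAi 1 to 5. The Rab7-labelled libraries had 4.19, 5.25, 5.37 and 12.4 FPKM, so the groups overlapped and Rab7-labelled 4 was the highest of all libraries. A neighbouring gene listed as CG30382, whose current symbol is Prosalpha1R (2R 7830413 to 7831771, minus strand), does not meet the naming rule. In controls it had 2.75 FPKM ± 0.28 (SD, n = 4), in Rab5 RNAi 2.53 FPKM ± 0.86 (SD, n = 5), and in the Rab7-labelled libraries 4.68 FPKM ± 0.59 (SD, n = 4). These genes are close copies and reads can be shared between them, so the level of Prosalpha1 is uncertain. Prosalpha1 did not pass the test in any comparison.

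In Rab5 RNAi heads 1 of the 32 core genes passed the test against controls, the ATPase Rpt1, which fell. Over all genes, 17.5% were called in this comparison, 8.26% higher and 9.28% lower (limma on log2(FPKM + 1), adjusted p below 0.05). In 8.93% of all genes every Rab5 RNAi library lay above every control, and in 9.69% below. Of the core genes 0 lay above and 1, Rpt1, below. Of the core genes 0 were called higher and 1 lower. An unadjusted limma p below 0.05 was found in 5 core genes, 4 of them higher. It was found in 3088 of all 10038 genes tested, 1481 of them higher. The log2 differences of the core genes ran from -0.40 to 0.32, and 24 were above 0. Their median was 0.09, beside a median of -0.01 over all genes tested. The median was 0.04 in the alpha ring, 0.09 in the beta ring, 0.15 in the ATPases of the base, 0.08 in the other base subunits and 0.02 in the lid.

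In the Rab7-labelled heads all 32 core genes had a log2 difference above 0 against controls, but none passed the test. Over all genes 3.21% were called, 1.64% higher and 1.56% lower, beside 0 of 32 core genes. Of these, 13 had an unadjusted limma p below 0.05, all higher, beside 1736 of all 10038 genes tested, 925 of them higher. The lowest adjusted p of a core gene was 0.057. The differences ran from 0.08 to 0.42 with a median of 0.26, beside -0.01 over all genes tested. In 19 core genes every Rab7-labelled library lay above every control, which held for 6.87% of all genes, and in 0 core genes every one lay below, beside 6.89% of all genes. They were all 7 genes of the beta ring, 5 of 7 of the alpha ring, 3 of 6 ATPases, 1 of 4 other base subunits and 3 of 8 lid subunits. Both comparisons share the 4 control libraries. The calls depend on the libraries in the fit: with the Rab5 RNAi libraries left out of the fit 11 core genes were called higher, beside 559 of all genes (5.57%), 293 of them higher (2.92%). Without Rab5 RNAi 1 and 5 there were 9, beside 625 of all genes (6.25%), 356 of them higher (3.56%). Other measures set the Rab7-labelled libraries apart from controls as well. The summed level of 4 glial markers, all detected, lay between 179 and 199 FPKM there, between 247 and 276 FPKM in controls and between 160 and 257 FPKM in Rab5 RNAi. For 5 hemocyte markers, all detected, the sums were 23.8 to 32.2, 43.3 to 65.8 and 36.6 to 74.8 FPKM. Of these, Hml, PPO1, NimC1 and Sr-CI were below every control in the Rab7-labelled libraries. PPO2 was not, with 13.6 to 18.6 FPKM there and 13.2 to 16.8 FPKM in controls. The mitochondrial mt:lrRNA took between 2.82% and 5.54% of reads in the Rab7-labelled libraries and between 1.58% and 2.61% in controls. In Rab5 RNAi it took between 3.14% and 6.72%, also above every control. In all 3 measures the Rab7-labelled libraries and the controls did not overlap, and their part in the core result was not tested.

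**Figure D2:**
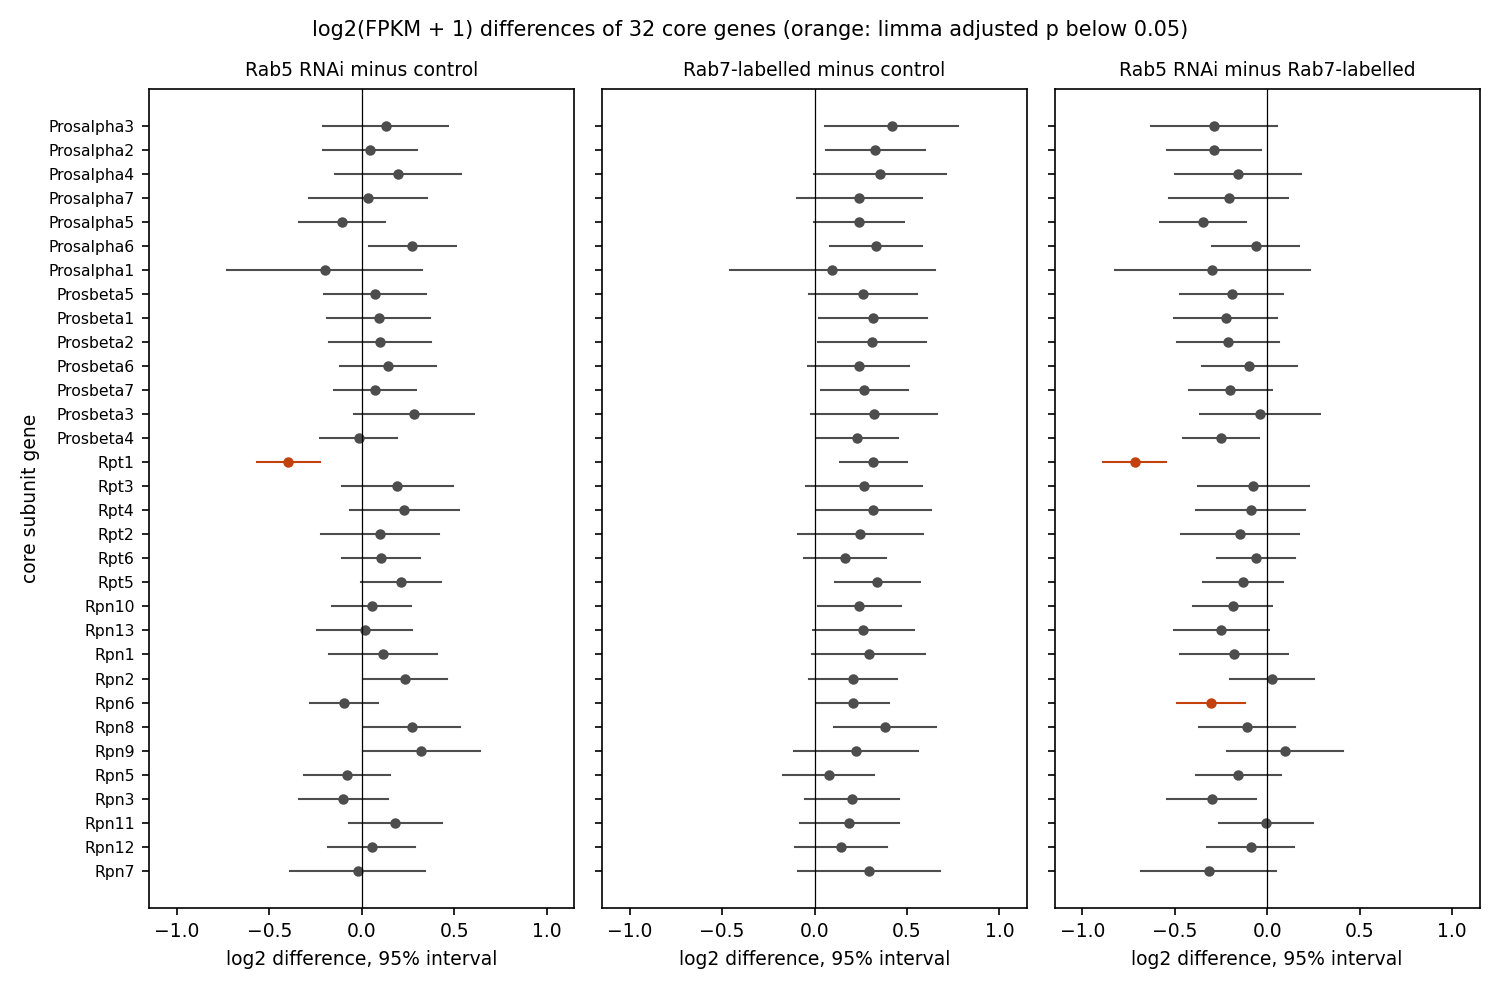
Log2 differences of the 32 core genes on the log2(FPKM + 1) scale with 95% intervals from limma, in the 3 comparisons between groups. Orange marks an adjusted p below 0.05, which Rpt1 reached in the left and right panels and Rpn6 in the right panel. In the middle panel all 32 points lie to the right of 0.

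Most core genes moved together within the Rab5 RNAi group, where Rab5 RNAi 5 was the lowest library in 25 of the 32. Among the exceptions, Rpt1 was lowest in Rab5 RNAi 2. Prosalpha1 was lower in Rab5 RNAi 3 and 4 than in Rab5 RNAi 1. The summed core level was 1678, 1787, 1568 and 1818 FPKM in controls 1 to 4 and 2143, 1971, 2024 and 2180 FPKM in Rab7-labelled 1 to 4. In Rab5 RNAi 1 to 5 it was 1629, 1828, 2120, 2177 and 1434 FPKM. The control and Rab7-labelled libraries did not overlap, whereas the Rab5 RNAi libraries reached from below every control to within the range of the Rab7-labelled ones. Rab5 RNAi 5 was the lowest of all 13 libraries in 22 of the 32 core genes, and Rab5 RNAi 4 was the highest in 11. The median coefficient of variation of a core gene was 18.3% in Rab5 RNAi, 7.94% in controls and 7.17% in the Rab7-labelled libraries.

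The low libraries Rab5 RNAi 1 and 5 are those with the high Act57B level in that group. Rab7-labelled 1 and 4, with as high an Act57B level, had the highest core sums of their group, and so did control 4. Sums over marker lists also set Rab5 RNAi 1 and 5 apart from Rab5 RNAi 2, 3 and 4. Photoreceptor markers summed to 1932 and 1563 FPKM, beside 6171 to 8326 FPKM in the other 3, and ninaE, the main rhodopsin, had 849 and 686 FPKM beside 3292 to 4918 FPKM. This was not particular to Rab5 RNAi. Photoreceptor sums were 17106 and 17835 FPKM in Rab7-labelled 1 and 4, beside 35609 and 39298 FPKM in 2 and 3, and control 4 had the lowest control sum, 33463 FPKM. Glial sums in Rab7-labelled 1 and 4, 179 and 188 FPKM, were not above those of 2 and 3, 199 and 190 FPKM. Glial markers summed to 257 and 256 FPKM in Rab5 RNAi 1 and 5, beside 160 to 199.7 FPKM in Rab5 RNAi 2, 3 and 4. For 5 fat body markers, all detected, the sums were 139 and 163 FPKM, beside 101 to 102 FPKM. The fat body markers did not move together. FASN1 had 104 and 121 FPKM in Rab5 RNAi 1 and 5, beside 67.6 to 72.2 FPKM, and Lsd-1 was higher there too. Yp3 was lower there, with 5.36 and 5.29 FPKM beside 19.3 to 22.6 FPKM. The part of Act57B and of the marker lists in the core result was not tested. Without the 5 libraries of high Act57B level, 15 core genes were called in Rab5 RNAi against controls, 14 higher and Rpt1 lower, and the median log2 difference was 0.28. Over all genes the calls in that fit numbered 2564 (25.7%), 1269 of them higher (12.7%), beside 1761 with all libraries. Without Rab5 RNAi 1 and 5 alone, a setting chosen after seeing the data, 13 were called, 12 higher and Rpt1 lower, with a median of 0.25, and over all genes 2308 were called (23.1%), 1125 of them higher (11.2%). In the Rab7-labelled libraries 0 were called without the 5 libraries of high Act57B level, and 31 of 32 differences were above 0. Over all genes 436 were called there (4.38%), 249 of them higher (2.5%).

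**Figure D3:**
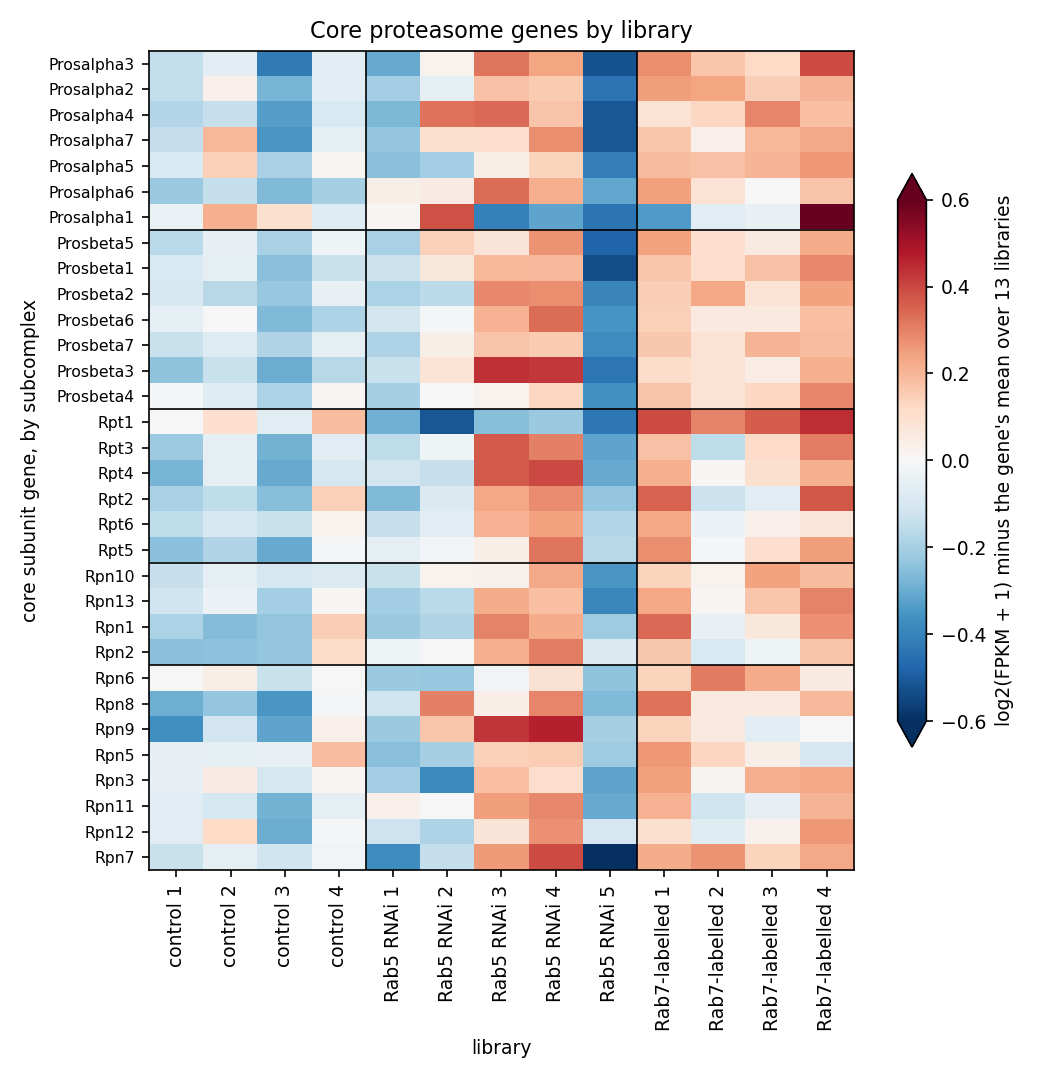
Each core gene in each library as log2(FPKM + 1) minus the mean of that gene over the 13 libraries, in colour from -0.6 to 0.6, with genes ordered by subcomplex. Rab5 RNAi 5 is below the mean in all 32 genes and Rab5 RNAi 4 above it in 30. Rpt1 is below its mean in every Rab5 RNAi library and above it in every Rab7-labelled library.

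The proteolytic subunits of the beta ring followed this pattern. Prosbeta5 (FBgn0029134, 2R 10819978 to 10821178), which holds the chymotrypsin-like site, had 82.6, 89.4, 80.7 and 90.8 FPKM in controls 1 to 4 and 80.6, 102, 97.7, 112 and 66.0 FPKM in Rab5 RNAi 1 to 5. The Rab7-labelled libraries had 110, 99.2, 96.2 and 108 FPKM, all above every control and within the range of Rab5 RNAi. The log2 difference was 0.07 in Rab5 RNAi (95% interval -0.21 to 0.35, limma adjusted p = 0.75) and 0.26 in the Rab7-labelled libraries (-0.03 to 0.56, adjusted p = 0.34).

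Prosbeta1 (FBgn0010590, 2R 16013805 to 16014787), of the caspase-like site, had 78.6, 80.9, 70.3 and 76.3 FPKM in controls, 76.5, 87.9, 96.3, 96.1 and 57.6 FPKM in Rab5 RNAi and 94.1, 90.2, 95.03 and 103 FPKM in the Rab7-labelled libraries. Prosbeta2 (FBgn0023174, 3L 14999951 to 15001319), of the trypsin-like site, had 75.1, 71.4, 68.5 and 77.9 FPKM in controls, 70.2, 72.0, 98.2, 97.7 and 60.9 FPKM in Rab5 RNAi and 89.1, 94.4, 85.2 and 95.1 FPKM in the Rab7-labelled libraries. In both genes the Rab7-labelled libraries lay above every control, and Rab5 RNAi 5 was the lowest and Rab5 RNAi 3 the highest of the Rab5 RNAi libraries. Against controls neither passed the test, with differences of 0.32 (limma adjusted p = 0.25) and 0.31 (adjusted p = 0.26) in the Rab7-labelled libraries and 0.09 and 0.10 in Rab5 RNAi. Prosbeta4, a structural subunit of the beta ring and its lowest member, had 52.0, 49.7, 45.8 and 52.8 FPKM in controls, 45.5, 52.5, 53.2, 57.1 and 40.5 FPKM in Rab5 RNAi and 59.0, 55.5, 57.1 and 64.3 FPKM in the Rab7-labelled libraries, where it again lay above every control (log2 difference 0.23, adjusted p = 0.26).

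Prosalpha3 (FBgn0261394, 2R 20994900 to 20996118), an alpha ring subunit and the highest core gene, had 90.01, 94.9, 73.9 and 95.02 FPKM in controls and 80.7, 101, 125, 118 and 69.0 FPKM in Rab5 RNAi. The Rab7-labelled libraries had 121, 112, 108 and 131 FPKM, all above every control. Their log2 difference of 0.42 was the largest of the core genes in that comparison (95% interval 0.06 to 0.77, limma adjusted p = 0.21). Another alpha ring gene, Prosalpha5, was named after its values were seen because the RNAi groups did not overlap: it had 50.4, 52.1, 61.8, 66.1 and 44.9 FPKM in Rab5 RNAi and 68.8, 68.0, 69.5 and 72.1 FPKM in the Rab7-labelled libraries (log2 difference -0.35, limma adjusted p = 0.055).

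Rpt1 (FBgn0028687, 2R 7652440 to 7653954, minus strand), one of the 6 ATPases of the base, was the core gene that fell in Rab5 RNAi. It had 66.2, 71.1, 63.2 and 75.5 FPKM in controls, 54.0, 46.0, 55.3, 56.5 and 48.8 FPKM in Rab5 RNAi and 87.2, 81.5, 85.5 and 90.5 FPKM in the Rab7-labelled libraries. The 3 groups did not overlap, with Rab5 RNAi lowest and the Rab7-labelled libraries highest. The control mean was 69.0 FPKM ± 5.42 (SD, n = 4), and that of Rab5 RNAi was 52.1 FPKM ± 4.51 (SD, n = 5), or 0.756 times the control level. On the log2 scale it fell by 0.40 (SE 0.08, limma adjusted p = 0.0038), a call kept in all 24 alternatives run, with values from -0.44 to -0.31. In the Rab7-labelled libraries the mean was 86.2 FPKM ± 3.73 (SD, n = 4), and the difference from controls of 0.32 (SE 0.08, limma adjusted p = 0.057) did not pass. It passed in 5 of 24 alternatives, among them the fit to the 2 groups alone and the fits without control 4 and without Rab5 RNAi 2, over a range of adjusted p from 0.041 to 0.19.

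The difference between the RNAi groups was tested directly. Of all genes 11.1% were called between Rab5 RNAi and the Rab7-labelled libraries, 4.67% higher and 6.4% lower in Rab5 RNAi, beside 2 of the 32 core genes, both lower. The groups did not overlap in 0 core genes higher and 2 lower, Rpt1 and Prosalpha5, beside 4.98% and 6.57% of all genes. Rpt1 was lower in Rab5 RNAi by a log2 difference of -0.72 (SE 0.08, limma adjusted p = 9.4e-05), and this call held in all 24 alternatives. Over the core genes the median difference was -0.18, beside 0.01 over all genes tested, and 30 were below 0. Without the 5 libraries of high Act57B level the median was 0.060 and Rpt1 was the 1 core gene called. Over all genes that fit called 15.9%, 7.29% higher and 8.59% lower.

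The other lower gene was Rpn6 (FBgn0028689, 2R 14750166 to 14752910, minus strand), a lid subunit that clamps the lid to the core particle. It had 59.7, 61.2, 54.5 and 59.7 FPKM in controls, 51.1, 50.9, 59.0, 63.8 and 50.4 FPKM in Rab5 RNAi and 65.8, 74.4, 69.9 and 62.0 FPKM in the Rab7-labelled libraries. Rab5 RNAi 4 lay above Rab7-labelled 4, so the RNAi groups overlapped. The log2 difference between them was -0.30 (SE 0.09, limma adjusted p = 0.038). This call ended in 14 of 24 alternatives, with adjusted p up to 0.12.

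Within a library Rpt1 can be set against the other ATPases, which enter the same ring. The ratio of Rpt1 to the median of the other 5 Rpt genes was 1.57, 1.58, 1.51 and 1.58 in controls 1 to 4 and 1.46, 1.78, 1.78 and 1.51 in Rab7-labelled 1 to 4. In Rab5 RNAi 1 to 5 it was 1.27, 0.986, 0.936, 0.924 and 1.18, below every other library. Rpt1 was the highest of the 6 ATPases in every control and every Rab7-labelled library, and it ranked 4 in Rab5 RNAi 2, 3 and 4. In those 3 libraries the median of the other 5 was 46.7, 59.1 and 61.2 FPKM, beside 41.9 to 47.8 FPKM in controls.

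**Figure D4:**
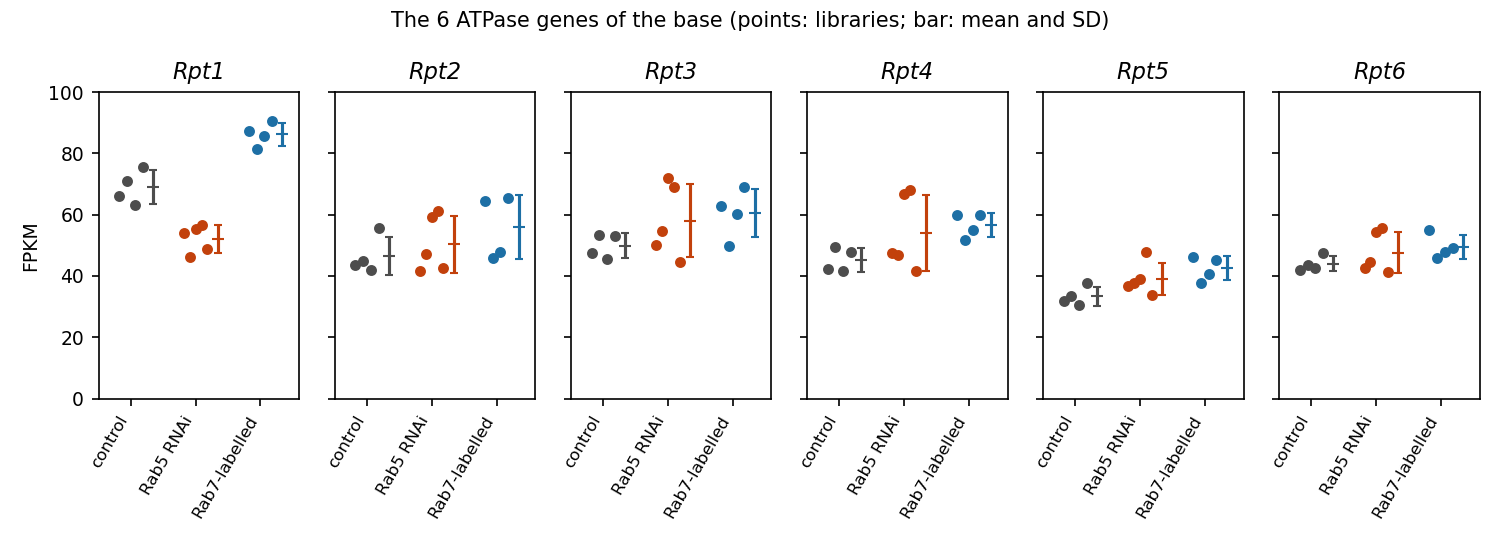
FPKM of the 6 ATPase genes of the base by group, on axes that start at 0. Points are libraries and bars show the mean with its SD. The Rpt1 points of the 3 groups do not overlap, whereas in the other 5 genes the Rab5 RNAi points overlap the controls.

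Rpt1 lies inside the gene model of CG17985 on the same strand, and reads of the region can be assigned to either. In controls CG17985 had 14.3 FPKM ± 0.80 (SD, n = 4), in Rab5 RNAi 15.5 FPKM ± 1.22 (SD, n = 5) and in the Rab7-labelled libraries 14.9 FPKM ± 1.148 (SD, n = 4). It did not pass in any comparison (limma adjusted p from 0.36 to 0.81). In all, 16 of the 32 core gene models overlap another gene, 15 of them on the opposite strand only. The strand setting is not given in the sources used here, so reads from such pairs cannot be told apart.

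Rpt5, the lowest of the ATPases, had 31.8, 33.4, 30.6 and 37.7 FPKM in controls, 36.6, 37.6, 39.0, 47.7 and 33.7 FPKM in Rab5 RNAi and 46.3, 37.7, 40.8 and 45.3 FPKM in the Rab7-labelled libraries. The lowest Rab7-labelled library lay just above the highest control, and the Rab5 RNAi libraries overlapped both groups. Its differences from controls were 0.21 in Rab5 RNAi (95% interval -0.01 to 0.43, limma adjusted p = 0.18) and 0.34 in the Rab7-labelled libraries (0.11 to 0.57, adjusted p = 0.10), in the direction opposite to Rpt1 in the first and the same in the second.

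Of the base subunits that are not ATPases, Rpn10, a ubiquitin receptor, was the highest. It had 58.0, 61.3, 59.4 and 60.3 FPKM in controls, 58.1, 64.9, 65.0, 74.9 and 49.9 FPKM in Rab5 RNAi and 70.1, 64.8, 75.8 and 72.9 FPKM in the Rab7-labelled libraries, the last all above the controls (log2 difference 0.24, limma adjusted p = 0.25). Rpn2, a large scaffold of the base and the lowest, had 34.3, 34.4, 34.7 and 44.3 FPKM in controls, 40.2, 40.9, 47.7, 50.9 and 38.6 FPKM in Rab5 RNAi and 46.0, 38.3, 40.0 and 46.3 FPKM in the Rab7-labelled libraries. Control 4 overlapped both RNAi groups, and the other 3 controls lay below every RNAi library. The difference in Rab5 RNAi was 0.24 (limma adjusted p = 0.15), and Rpn2 was called higher there without control 4 (adjusted p = 0.049), with the replicate block (adjusted p = 0.042) and without the 5 libraries of high Act57B level (adjusted p = 0.0066).

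Rpn7, a lid subunit and the lowest of the lid, varied most widely in Rab5 RNAi among the subunits given here other than Prosalpha1. It had 31.7, 33.5, 32.02 and 34.6 FPKM in controls, 26.7, 31.5, 41.9, 46.2 and 21.8 FPKM in Rab5 RNAi and 40.9, 42.3, 38.4 and 41.1 FPKM in the Rab7-labelled libraries. Rab5 RNAi thus held both the lowest and the highest value of the 13 libraries, and every Rab7-labelled library lay above every control. Neither difference from controls passed (-0.02 in Rab5 RNAi, limma adjusted p = 0.95; 0.29 in the Rab7-labelled libraries, adjusted p = 0.44).

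The paralogues were far lower. Of the 15, 4 reached a mean of 1 FPKM over the 13 libraries and entered the test, 11 were below 1 FPKM and 7 below 0.1 FPKM. Since Rpt6R passed this filter only through the group in which it was high, counts over the tested paralogues carry no weight. The highest was Rpt4R at 9.64 FPKM, 18.5% of the level of Rpt4, followed by Rpt3R at 2.99 FPKM or 5.32% of Rpt3 and Rpt6R at 1.17 FPKM or 2.49% of Rpt6. Prosalpha3T had 1.14 FPKM, 1.12% of Prosalpha3. At the other end Rpn12R, Prosbeta5R1 and Prosbeta4R2 had 4, 2 and 3 reads over all libraries. Rpn12R had 0 reads in the Rab7-labelled libraries, which allows up to 0.0429 FPKM if the group as a whole held 3 reads. Prosbeta5R1 and Prosbeta4R2 had 0 reads in Rab5 RNAi, which allows up to 0.0291 and 0.0195 FPKM. A list of 10 testis markers summed to between 4.06 and 7.58 FPKM, with 2 members, betaTub85D and tomb, at a mean of at least 1 FPKM and Mst84Da and Mst84Db at 0 reads in every library. Their sums lay between 5.93 and 7.58 FPKM in Rab5 RNAi and between 4.06 and 5.25 FPKM in controls, but single markers did not move together. The level of tomb was 0.976 and 0.890 FPKM in Rab5 RNAi 1 and 5, 2.33 to 3.67 FPKM in Rab5 RNAi 2, 3 and 4 and 1.23 to 2.72 FPKM in controls. That of vas was 2.19 and 2.47 FPKM, 0.591 to 1.07 FPKM and 0.356 to 0.905 FPKM. For betaTub85D Rab5 RNAi (1.88 to 2.94 FPKM) and controls (1.32 to 2.25 FPKM) overlapped.

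Rpt6R (FBgn0039788, 3R 30582198 to 30583697, minus strand), a copy of the ATPase Rpt6, had its highest values in Rab5 RNAi. It had 0.372, 0.300, 0.383 and 0.477 FPKM in controls, 0.753, 3.53, 2.54, 4.24 and 0.662 FPKM in Rab5 RNAi and 0.216, 0.497, 0.438 and 0.849 FPKM in the Rab7-labelled libraries. All 5 Rab5 RNAi libraries lay above every control, and replicates 2, 3 and 4 above every other library. The reads behind these values numbered 318 over the Rab5 RNAi libraries and 40 over the controls. The mean of 2.35 FPKM ± 1.61 (SD, n = 5) was 6.12 times the control mean of 0.383 FPKM ± 0.073 (SD, n = 4), and the Rab7-labelled mean was 0.4999 FPKM ± 0.262 (SD, n = 4). Only the Rab5 RNAi mean is above the minimum of 1 FPKM, so the gene entered the test through the group in which it was high, and its adjusted p there is no support for a difference. With no filter on low values the log2 difference from controls was 1.12 (limma adjusted p = 0.036). With the filter this call ended in 6 of the 21 alternatives that gave a value, with adjusted p up to 0.067. They were the fit to the 2 groups alone, voom on the recovered reads, and the fits without control 1, 2 or 3 or Rab5 RNAi 3. In the other 3 of the 24 alternatives, a minimum of 5 FPKM and the fits without Rab5 RNAi 2 or 4, its mean fell below the filter. Against the Rab7-labelled libraries the difference of 1.02 did not pass with no filter (limma adjusted p = 0.076). As a share of Rpt6, Rpt6R was 4.72% ± 3.05 (SD, n = 5) in Rab5 RNAi and 0.869% ± 0.131 (SD, n = 4) in controls.

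Rpt4R (FBgn0036224, 3L 11941912 to 11943485, plus strand), a copy of the ATPase Rpt4, varied in the same libraries without passing the test. It had 7.45, 6.39, 7.49 and 5.93 FPKM in controls, 4.45, 13.7, 13.5, 16.6 and 3.15 FPKM in Rab5 RNAi and 10.1, 12.4, 14.3 and 10.02 FPKM in the Rab7-labelled libraries. Rab5 RNAi 1 and 5 were below every control and Rab5 RNAi 2, 3 and 4 were above them, as were all Rab7-labelled libraries. Against controls the differences were 0.31 in Rab5 RNAi (limma adjusted p = 0.62) and 0.69 in the Rab7-labelled libraries (adjusted p = 0.41). Without the 5 libraries of high Act57B level both passed, at 0.94 (adjusted p = 1.7e-04) and 0.82 (adjusted p = 0.0051). Without Rab5 RNAi 1 and 5 alone they were 0.996 (adjusted p = 2.1e-04) and 0.69 (adjusted p = 0.0060), and with the Rab5 RNAi libraries left out of the fit the second had an adjusted p of 0.013.

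Rpt3R (FBgn0037742, 3R 9754735 to 9756510, minus strand), a copy of the ATPase Rpt3, did not share this. It had 3.19, 2.80, 3.09 and 4.51 FPKM in controls, 3.11, 2.67, 2.42, 2.11 and 3.07 FPKM in Rab5 RNAi and 2.83, 2.47, 2.61 and 3.99 FPKM in the Rab7-labelled libraries. The groups overlapped, control 4 and Rab7-labelled 4 were the highest libraries, and neither difference from controls passed (-0.25 and -0.14, limma adjusted p = 0.26 and 0.70). The paralogues are similar in sequence to the core genes, and reads could be split between them.

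**Figure D5:**
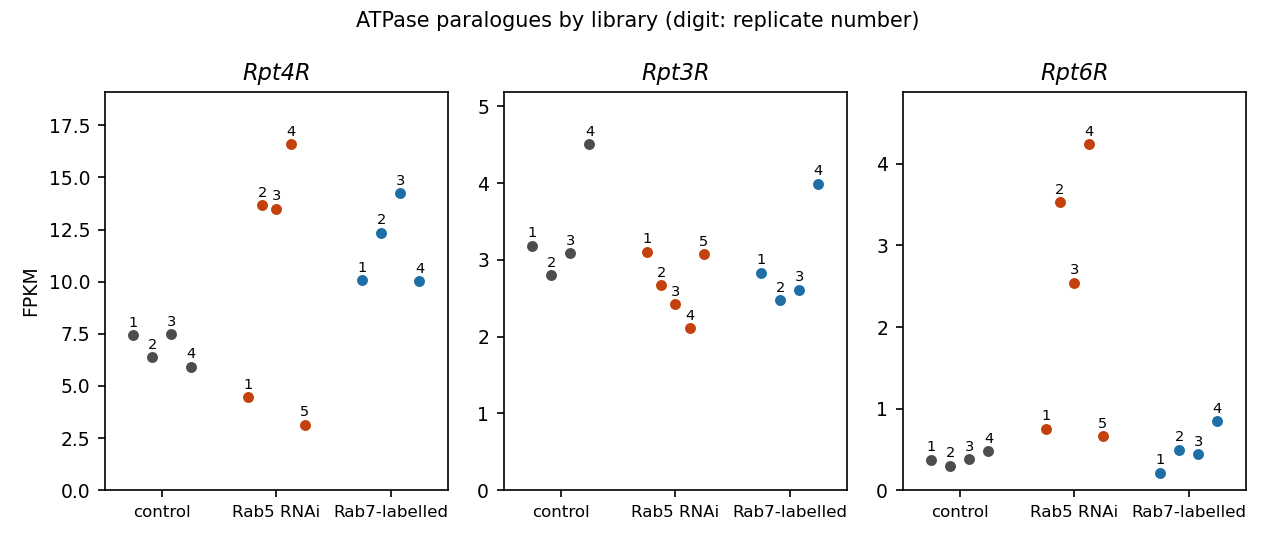
FPKM of the 3 most abundant ATPase paralogues by library, with the digit giving the replicate number and axes that start at 0. In Rpt4R and Rpt6R, Rab5 RNAi 2, 3 and 4 stand above Rab5 RNAi 1 and 5, while Rpt3R lies between 2.11 and 4.51 FPKM in all libraries.

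A separate list of 29 genes that assemble, feed or control the proteasome was tested as well. In Rab5 RNAi 3 of the 29 passed, 2 higher and 1 lower, beside 17.5% of all genes, with a median log2 difference of 0.08. In the Rab7-labelled libraries 1 of the 29 passed, higher, beside 3.21% of all genes, with a median of 0.16 and 25 above 0. The libraries of 9 all lay above every control there, beside 6.87% of all genes. Between the RNAi groups 4 of the 29 passed, all lower in Rab5 RNAi, beside 11.1% of all genes called and 6.4% called lower, with a median of -0.05. The core genes and this list thus had medians of 0.09 and 0.08 in Rab5 RNAi and of 0.26 and 0.16 in the Rab7-labelled libraries.

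Among shuttle factors, which carry ubiquitinated proteins to the proteasome, rngo, the fly Ddi1, rose in both RNAi groups. It had 16.6, 17.1, 17.6 and 17.0 FPKM in controls, 21.0, 22.2, 21.5, 22.1 and 19.5 FPKM in Rab5 RNAi and 22.3, 20.3, 19.5 and 22.1 FPKM in the Rab7-labelled libraries. Every RNAi library lay above every control. The differences were 0.30 (SE 0.06, limma adjusted p = 0.0040) and 0.28 (SE 0.06, adjusted p = 0.027). The first call held in all 24 alternatives and the second ended in 8, with adjusted p up to 0.19, among them the fits without any 1 of the 4 controls and without Rab7-labelled 1 or 4.

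Rad23, another shuttle factor, rose in Rab5 RNAi. It had 65.7, 61.3, 64.4 and 68.4 FPKM in controls and 70.6, 80.3, 82.2, 91.1 and 76.9 FPKM in Rab5 RNAi, without overlap (log2 difference 0.30, SE 0.09, limma adjusted p = 0.033). The Rab7-labelled libraries had 84.97, 88.7, 75.1 and 70.9 FPKM, also all above every control, and their difference of 0.29 did not pass (limma adjusted p = 0.11). The Rab5 RNAi call ended in 7 of 24 alternatives, with adjusted p up to 0.099, among them the fits without control 1, 2 or 3 and without Rab5 RNAi 2, 3 or 4. maf-S, the small Maf partner of the transcription factor Cnc, fell in Rab5 RNAi. Its levels were 146, 163, 122 and 104 FPKM in controls and 70.7, 107, 104, 95.2 and 67.1 FPKM in Rab5 RNAi, where control 4 overlapped the RNAi range (log2 difference -0.59, SE 0.18, limma adjusted p = 0.035). Its call ended in 7 of 24 alternatives with adjusted p up to 0.13, among them the fits without control 1, 2 or 3 and without Rab5 RNAi 1 or 5.

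The genes lower in Rab5 RNAi than in the Rab7-labelled libraries were Pngl, Uba1, PI31 and Plap. None of them passed against controls in either RNAi group. Pngl, a peptide N-glycanase that in other species processes the Cnc relative Nrf1, had 23.1, 23.9, 26.4, 25.8 and 22.8 FPKM in Rab5 RNAi and 31.7, 35.7, 31.9 and 27.2 FPKM in the Rab7-labelled libraries. Its controls had 27.2, 26.4, 26.4 and 28.2 FPKM. The RNAi groups did not overlap, and the log2 difference of -0.36 (SE 0.08, limma adjusted p = 0.0091) passed in all 24 alternatives. Uba1, the ubiquitin-activating enzyme, had 77.9, 71.8, 89.3, 82.9 and 78.3 FPKM in Rab5 RNAi against 124, 98.8, 98.3 and 111 FPKM in the Rab7-labelled libraries, also without overlap (-0.42, SE 0.11, limma adjusted p = 0.023). Controls had 77.6, 80.0, 77.5 and 105 FPKM of Uba1. The call of Uba1 between the RNAi groups ended in 5 of 24 alternatives, with adjusted p up to 0.097, among them the fits without Rab7-labelled 1 or 4. PI31, a proteasome-binding regulator, and Plap, the fly relative of the segregase cofactor PLAA, had differences of -0.25 (adjusted p = 0.042) and -0.34 (adjusted p = 0.048), and each of these limma calls ended in 18 of 24 alternatives.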

How the data were processed

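The authors deposited FPKM, reads scaled to gene length and to size factors between libraries, covering 18344 genes and 13 head RNA libraries. CASAVA is the tool in the submitters' processing notes. For aligner, counter, strand setting and build: not given in the sources used here. In the series file 13 per-sample columns were left unused, and 5 damaged gene names were repaired by identifier. Coordinates of all 47 members match a BDGP6 annotation.

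All 182918 deposited FPKM values above 0 were whole multiples of 1 read within 0.05, which gave the reads per library. The deposited scaling equalled median-of-ratios size factors over 11577 genes (largest relative difference 1.2e-10). The floor of 3 reads covers counting error only, whereas the 95% intervals from limma rest on the spread between libraries.

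Genes whose mean FPKM reached 1, 10038 in all, were fitted together as log2(FPKM + 1) with limma 3.58.1 (trend and robust, all 3 groups in 1 fit) in R 4.3.3, with Benjamini-Hochberg adjustment over all genes tested. The count tests planned as alternatives were not run, because the values are FPKM, and voom was added.

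Core genes given in full are those called, the proteolytic subunits and the highest and lowest of each subcomplex. Paralogues given are those called and the 3 highest, and of the 29 other pathway genes up to 6 called per comparison are named, 2 of them found by current symbols. Members and lists were chosen with earlier results of these data known. The closing section gives the effect of 24 alternatives.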

Additional observations from a re-analysis of the deposited data

Results flagged for a closer look

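Some single libraries stood apart from the rest of their group. Prosalpha1 had 12.4 FPKM in Rab7-labelled 4, where the other 3 libraries of the group had between 4.19 and 5.37 FPKM. Its neighbouring copy CG30382 had 5.09 FPKM in that library and between 3.83 and 5.06 FPKM in the others. Rpn2 had 44.3 FPKM in control 4 and between 34.3 and 34.7 FPKM in the other controls, and Uba1 had 105 FPKM in control 4 and between 77.5 and 80.0 FPKM in the other controls. Control 4 is the control with the high Act57B level, and the part of that level was not tested. Of 72 sets of libraries examined this way 3 stood out, and chance alone marks about 1 in 20.

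Other genes were set apart because the RNAi groups differed from each other in limma's direct test. The log2 difference of Rab5 RNAi minus Rab7-labelled was -0.72 for Rpt1, -0.30 for Rpn6, -0.25 for PI31, -0.36 for Pngl, -0.34 for Plap and -0.42 for Uba1. CG30382, chosen after its values were seen, also differed, at -0.72 (limma adjusted p = 0.014): in Rab5 RNAi its level was 2.53 FPKM ± 0.86 (SD, n = 5), and in the Rab7-labelled libraries 4.68 FPKM ± 0.59 (SD, n = 4).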

How the results depend on the processing

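Of 1644 differences of named genes recomputed under alternatives, 1522 kept their side of the threshold, 83 lost a call, 39 gained one and 0 called ones changed direction. In Rab5 RNAi against controls the number of core genes called (1) became 2 with plain read totals and 6 with the replicate block. It became 15 without the 5 libraries of high Act57B level and 13 without Rab5 RNAi 1 and 5. Without 1 library at a time it lay between 1 and 4, the highest without Rab5 RNAi 5. Over all genes these fits called 20.2%, 19.4%, 25.7%, 23.1% and, without Rab5 RNAi 5, 17.8%, beside 17.5% in the main fit. The median core difference was 0.28 without the libraries of high Act57B level, and between 0.02 and 0.16 without 1 library at a time. In the Rab7-labelled libraries against controls the count (0) was 11 with only those groups fitted, 9 without Rab5 RNAi 1 and 5, 1 with voom on the recovered reads, 1 with the replicate block and between 0 and 1 without 1 library, and the median lay between 0.23 and 0.30. Between the RNAi groups the count (2) was 1 with no filter on low values, with only those groups, with plain read totals, with the replicate block, without the libraries of high Act57B level and without Rab5 RNAi 1 and 5, and between 1 and 4 without 1 library. The median there was 0.060 without the libraries of high Act57B level and between -0.24 and -0.10 without 1 library. Calls over all genes were 682 between the RNAi groups with only those groups and, for the Rab7-labelled libraries against controls, 559 with only those groups and 625 without Rab5 RNAi 1 and 5. In the latter comparison voom called 3.25% of all genes and the replicate block 4.2%, beside 3.21% in the main fit. Between the RNAi groups plain read totals called 16.4% of all genes and the replicate block 11.6%, beside 11.1% in the main fit. The share there was 5.86% of 16635 genes with no filter on low values and 6.79% with only those groups. It was 15.9% without the libraries of high Act57B level and 15% without Rab5 RNAi 1 and 5. Without 1 library at a time the calls over all genes lay between 1166 and 1780 in Rab5 RNAi, between 165 and 386 in the Rab7-labelled libraries and between 724 and 1071 between the RNAi groups. Beyond fits with fewer libraries, the cause was not tested. With plain read totals the median of all genes was 0.07, -0.03 and 0.11 in the 3 comparisons and 67.6%, 43.2% and 74.0% of calls were higher, beside 47.1%, 51.2% and 42.2%. Voom and the fit without Rab5 RNAi 1 and 5 were chosen after seeing the data. Whether the replicate numbers pair the libraries was not settled. Of 12 pairs with the same number 7 had deviations correlated above 0.1 (median 0.12, from -0.16 to 0.30). Of 44 other pairs 13 did (median -0.05, from -0.33 to 0.36). The planned TMM scaling and count tests were not run. Reads of paralogues below 0.1 FPKM were too few to show a difference.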
